A study of Homo sapiens with 12 samples.

Results

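The 29 tetraspanin genes described here were all genes of the expression table whose symbol was TSPAN with a number, or CD9, CD37, CD53, CD63, CD81, CD82 or CD151, out of 34595 genes with a value. They were measured in 3 gastric cancer cell lines, each sorted by surface CD133, a pentaspan glycoprotein encoded by PROM1 that is used as a stem cell marker. The 6 populations were the CD133+ and CD133- cells of KATO-III, a line from a signet ring cell carcinoma, and of SNU-216 and SNU-601, gastric carcinoma lines of the Seoul National University collection. The sample labels name SNU-216, while the series' design text has SNU201 in its place, and the labels were followed. All 3 lines were grown in RPMI1640 with calf serum, and the labels name no engineered allele or drug treatment. The CD133+ population held the brightest 10% of cells and the CD133- population the dimmest 6%, so the cells between them were not measured and each line stands for 1 tumour. Each population had 2 Illumina HT-12 v3 arrays, and nothing in the labels says that these came from separate cultures or sorts. The p-values within lines, between lines and for the interaction therefore measure only the spread between these arrays, which may be technical. Those over the lines measure that spread together with the variation of the change between the 3 lines. Values are background-subtracted fluorescence intensities in arbitrary units after quantile normalization. Since whole populations were measured, fewer cells of a type and less RNA per cell cannot be told apart.

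Tetraspanins are small membrane proteins that cross the cell membrane 4 times and carry a large, disulfide-bonded extracellular loop. They bind each other and integrins, immunoglobulin superfamily proteins and proteases, and so gather these partners into membrane patches known as the tetraspanin web. Several of them are sorted into multivesicular endosomes and are standard protein markers of exosomes, and in gut epithelium members such as CD9, CD151 and TSPAN8 are abundant at the cell surface.

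The arrays of 1 population correlated at 0.993 to 0.995, those of the other fraction of the same line at 0.974 to 0.988 and those of another line at 0.849 to 0.916, and no array stood apart from its population. PROM1 was higher in the CD133+ cells by 1.10 (SE 0.0589), 2.02 and 1.86 on the log2 scale in KATO-III, SNU-216 and SNU-601. All 5 listed epithelial markers were above the detection floor on every array, with summed intensities between 46394 and 57671. Among them CDH1 was called in each line, with changes of -0.70 in KATO-III, 0.30 in SNU-216 and -0.25 in SNU-601. KRT18 was lower by 0.39 in SNU-216 CD133+ cells (adjusted p = 0.0176). Of 5 leukocyte markers, PTPRC, CD3E and MS4A1 were under the floor on all 12 arrays, and the summed intensity of the list was 854 to 904 in KATO-III CD133+ cells against 1290.5 to 1322 in CD133- cells, 190.5 to 205 against 417 to 471 in SNU-216 and 1087 to 1225 against 1572 to 1649 in SNU-601. Of the leukocyte markers, CD68, a lysosomal membrane protein used as a macrophage marker, was called in each line. It was lower in CD133+ cells by 1.36, 1.13 and 0.46 log2 units in the same order of lines. Its KATO-III CD133+ values of 36.6 and 35.5 lay just above the floor, and CD14 made up most of the KATO-III sum. CD14 read 856 and 835 in KATO-III CD133+ cells against 1202 and 1242 in CD133- cells. It was lower there by 0.53 (adjusted p = 0.00609) and was not called in the other lines. Of 5 fibroblast markers, COL3A1 and DCN were under the floor on all arrays. The summed intensity was 108 to 134 in KATO-III CD133+ cells against 771 to 825 in CD133- cells, with LUM leading. It was at most 170 on any array of the other lines. The list did not move together. In KATO-III CD133+ cells LUM was lower by 3.31 log2 units and COL1A1 was higher by 0.84 (adjusted p = 0.00977). In SNU-216 CD133+ cells LUM was higher by 0.90 (adjusted p = 0.00323). All 3 endothelial markers were under the floor. The part of these markers in the tetraspanin results was not tested.

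Of the 29 tetraspanin genes, 18 were above the floor of 32.7 intensity units on all 12 arrays. A further 3, TSPAN5, TSPAN12 and TSPAN18, were above it on some arrays and entered the tests, which made 21 tested genes. TSPAN2 was above the floor on 1 array, the SNU-216 CD133+ replicate 1 at 49.9, and TSPAN7 on 1 array, the KATO-III CD133+ replicate 2 at 37.4. CD37, CD53 and TSPAN32, which are known from leukocytes, and TSPAN11, TSPAN16 and TSPAN19 never rose above it. The highest value among these 6 genes was 32.0, for CD53 on 1 array of SNU-601 CD133- cells, so they were not detectable at this precision in any of the 6 populations.

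**Figure D1:**
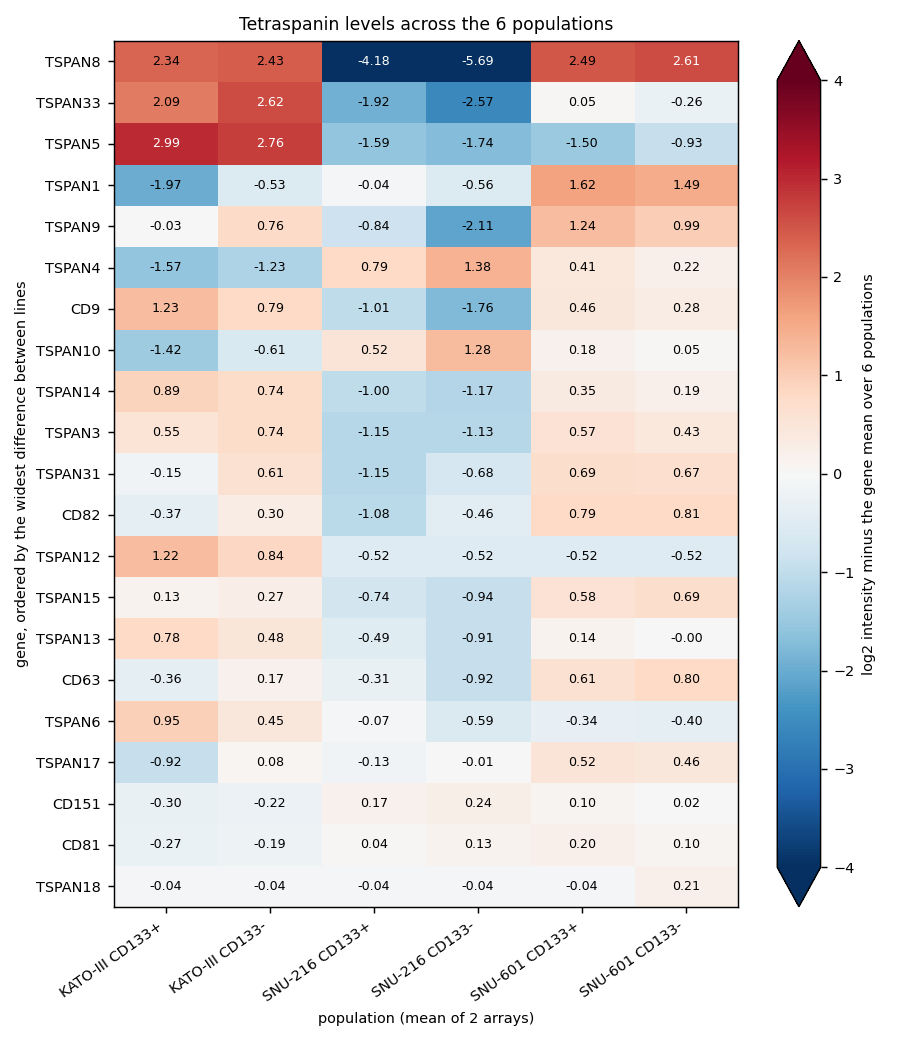
Log2 intensity of the 21 tested tetraspanin genes (rows of the map) in the 6 populations (columns, ordered by line and CD133 fraction). Each column is the mean of 2 arrays, and each gene is centred on its mean over the populations. Colours are capped at 4 log2 units either way. The widest contrasts lie between lines, led by TSPAN8, TSPAN33 and TSPAN5. For most genes the differences between the CD133+ and CD133- columns of a line are smaller. The exceptions are TSPAN17 (1.00 in KATO-III, 0.90 at most between lines) and TSPAN18 (0.25 in SNU-601, 0.12 between lines). Both SNU-216 values of TSPAN8, -4.18 and -5.69, lie past the colour cap.

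Whether any tetraspanin differed between the fractions on average over the 3 lines was tested with the line as a block. This test does not show that a change is shared by the lines. CD9, TSPAN13 and TSPAN6 were higher in CD133+ cells and CD82 was lower. These were 4 of 21 tested members, against 4.73% of the 20147 genes tested, 2.62% higher and 2.11% lower. Brighter genes were called more often, and among the 11674 genes above the floor on all arrays 6.78% were called. The median change of the members was -0.03 log2 units, beside -0.01 over all tested genes, and the median size of change was 0.25 beside 0.17. With both arrays of a population averaged first, or with the population as a random block, 0 of the 4 calls over the lines were kept (adjusted p = 0.796 for each after averaging, and 0.204 to 0.265 with the random block).

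CD9, a core web protein known for cell motility, adhesion and membrane fusion, had intensities of 8574 and 9343 in KATO-III CD133+ cells and 6369 and 6834 in the CD133- cells. Its SNU-216 values were 1891 and 1888 in CD133+ cells and 1129 and 1125 in CD133- cells. In SNU-601 the values were 5279.6 and 5153 against 4215 and 5073. The fractions did not overlap in any line, although the SNU-601 arrays came close. CD9 was higher by 0.45 log2 units over the lines (SE 0.0879, 95% interval 0.26 to 0.65, adjusted p = 0.0229), by 0.44 in KATO-III (1.36-fold) and by 0.75 in SNU-216 (1.68-fold). In SNU-601 the difference was 0.17 with an interval of -0.01 to 0.36. The change differed between the lines (interaction adjusted p = 0.00965). Without KATO-III CD133+ replicate 1, CD133+ replicate 2 or CD133- replicate 1, the adjusted p over the lines was 0.0505, 0.0621 and 0.0569.

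TSPAN13, also called NET-6, read 7599 and 7312 in KATO-III CD133+ cells against 6034 and 6061 in CD133- cells. In SNU-216 it read 2965 and 3213 against 2368 and 2252, and in SNU-601 it read 4801 and 4772 against 4521 and 4139. All 6 CD133+ arrays lay above the CD133- arrays of their own line. The rise over the lines was 0.29 log2 units (SE 0.0553, 1.22-fold, adjusted p = 0.0218), with 0.30 in KATO-III, 0.42 in SNU-216 and 0.15 in SNU-601, where the test did not call it (interval 0.02 to 0.27, adjusted p = 0.123). Leaving out any 1 of the 4 KATO-III arrays gave an adjusted p of 0.0518 to 0.0589 over the lines.

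TSPAN6, which takes part in endosomal trafficking and exosome release, read 1940.1 and 2026 in KATO-III CD133+ cells against 1391 and 1410.4. In SNU-216 the values were 985 and 968 against 652 and 716. In SNU-601 they were 803 and 819 against 817 and 738, and the fractions overlapped. TSPAN6 rose by 0.36 over the lines (SE 0.0852, 1.28-fold, adjusted p = 0.0386), by 0.50 in KATO-III and by 0.52 in SNU-216. The SNU-601 difference was 0.06 with an interval of -0.08 to 0.21, and the change differed between the lines (adjusted p = 0.00486). The call over the lines was lost without any 1 of 9 arrays, namely all 4 of KATO-III, all 4 of SNU-216 and SNU-601 CD133- replicate 2, with adjusted p of 0.0503 to 0.0983.

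CD82, known as KAI1 and as a suppressor of metastasis, read 583 and 659.6 in KATO-III CD133+ cells against 1055 and 925 in CD133- cells. Its SNU-216 values were 371 and 388 against 587 and 579. Both SNU-216 CD133+ arrays lay well under the CD133- arrays, whereas in SNU-601 the values of 1458 and 1319.98 in CD133+ cells enclosed the 1407 and 1392 of CD133- cells. CD82 fell by 0.43 log2 units over the lines (SE 0.111, adjusted p = 0.0486), by 0.67 in KATO-III (1.59-fold) and by 0.62 in SNU-216 (1.54-fold). In SNU-601 the difference was -0.01 (interval -0.20 to 0.18), and the interaction adjusted p was 0.0031. Its call over the lines was lost without any 1 of 9 arrays, all 4 of KATO-III, all 4 of SNU-216 and SNU-601 CD133+ replicate 2, with adjusted p of 0.0532 to 0.114.

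The stretch of 250 bases before the start of transcription was read for 3 of the genes that moved the same way in both KATO-III and SNU-216, those whose start is unique in the RefSeq promoter table of GRCh38.p14, to show what lies in front of them. Capitals mark the GC box (GGGCGG), the CCAAT box (CCAAT) and the TATA box (TATAAA), searched on both strands. TSPAN13 (chr7:16753505-16753754, plus strand) held 3 GC boxes and 1 CCAAT box, CD82 (chr11:44565413-44565662, plus strand) held 4 GC boxes, TSPAN31 (chr12:57744789-57745038, plus strand) held 3 CCAAT boxes, and none of them held a TATA box. Of 35116 promoters of this length in the same table, 42.6% held a GC box, 32% a CCAAT box and 10.7% a TATA box, so these are common letters and their presence is a description only.
TSPAN13: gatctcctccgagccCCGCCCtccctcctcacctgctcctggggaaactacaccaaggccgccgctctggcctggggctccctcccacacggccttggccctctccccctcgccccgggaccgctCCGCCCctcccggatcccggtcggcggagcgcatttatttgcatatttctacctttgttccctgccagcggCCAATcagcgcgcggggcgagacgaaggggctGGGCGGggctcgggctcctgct
CD82: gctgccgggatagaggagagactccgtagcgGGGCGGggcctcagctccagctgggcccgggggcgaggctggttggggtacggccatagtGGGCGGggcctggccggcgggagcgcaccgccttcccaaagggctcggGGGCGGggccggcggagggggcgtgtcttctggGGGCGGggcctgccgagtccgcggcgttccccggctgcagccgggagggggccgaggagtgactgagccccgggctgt
TSPAN31: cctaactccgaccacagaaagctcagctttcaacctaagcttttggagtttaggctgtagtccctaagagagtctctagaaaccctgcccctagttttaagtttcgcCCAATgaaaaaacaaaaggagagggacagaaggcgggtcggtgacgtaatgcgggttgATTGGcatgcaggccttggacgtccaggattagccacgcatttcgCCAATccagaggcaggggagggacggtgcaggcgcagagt

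**Figure D2:**
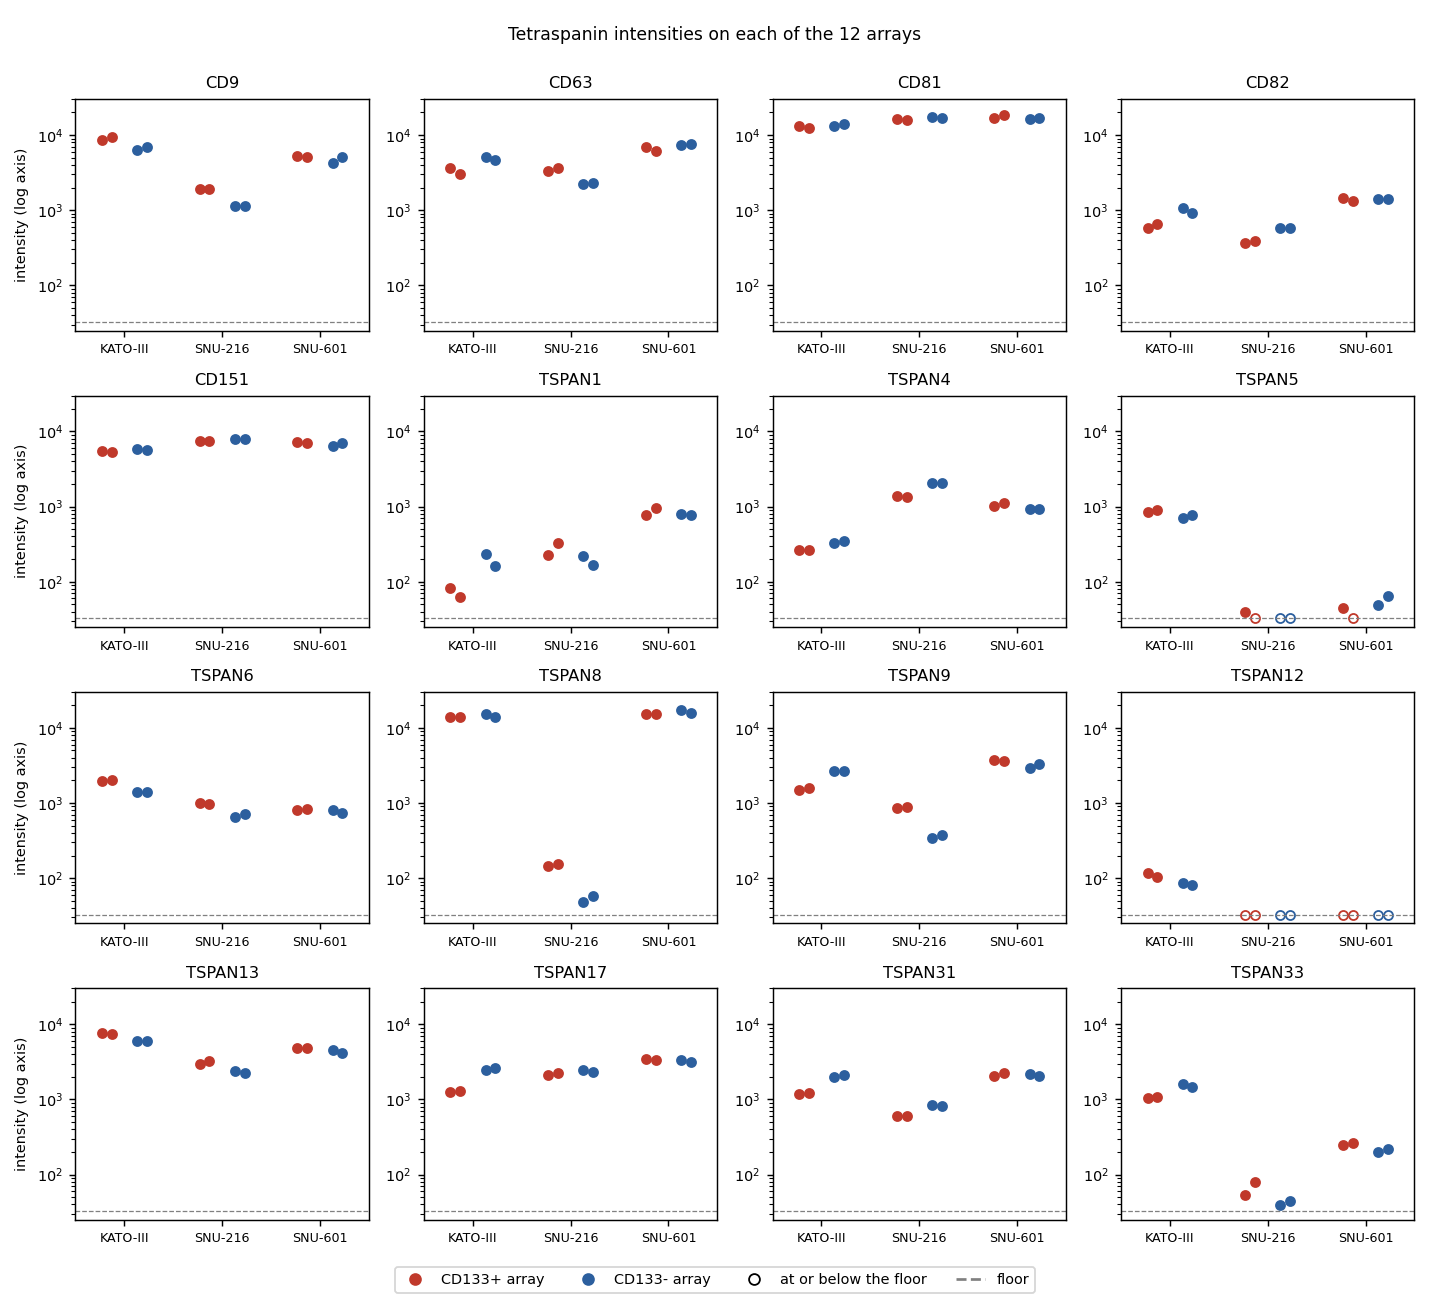
Intensity (arbitrary units, log axis) of the named tetraspanin genes on each of the 12 arrays, grouped by line and CD133 fraction; each point is 1 array and open points lie at the detection floor. CD9 and TSPAN13 sit higher in the CD133+ cells of all 3 lines, while TSPAN9 sits lower in KATO-III CD133+ cells (1473 and 1592 against 2631 and 2638) and higher in those of SNU-216.

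The remaining widely expressed web members did not share this pattern. CD81, a hepatitis C virus receptor, read 13132 and 12506 in KATO-III CD133+ cells against 13141 and 13991, 16217 and 15713 in SNU-216 CD133+ cells against 17180.5 and 16646, and 17099 and 18480.2 in SNU-601 CD133+ cells against 16304 and 17021. Over the lines the difference was -0.02 log2 units with a 95% interval of -0.12 to 0.07. CD151, which binds laminin-binding integrins, read 5431 and 5378 in KATO-III CD133+ cells against 5793 and 5639, 7573 and 7372 in SNU-216 CD133+ cells against 7916 and 7827, and 7272 and 6964 in SNU-601 CD133+ cells against 6497 and 6971. Its difference over the lines was -0.03 with an interval of -0.12 to 0.07. For both genes the tests called no line and no interaction. The intervals are for the mean change over these 3 lines, which took in differences of both signs. In KATO-III and SNU-216 the difference was -0.08 for either gene. In SNU-601 it was 0.09 for CD81 and 0.08 for CD151.

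CD63, a protein of late endosomes, lysosomes and exosomes, read 3669.96 and 3017 in KATO-III CD133+ cells against 5064 and 4597 in CD133- cells. In SNU-216 the order was turned, with 3303 and 3613 in CD133+ cells against 2246 and 2288. In SNU-601 it read 6927 and 6207 against 7425 and 7530.1. CD63 fell by 0.54 log2 units in KATO-III (SE 0.0958, adjusted p = 0.00204) and rose by 0.61 in SNU-216 (1.52-fold, adjusted p = 0.00159), and the SNU-601 difference was -0.19 with an interval of -0.41 to 0.03. The difference over the lines of -0.04 (interval -0.38 to 0.30) therefore averaged opposite changes, and the interaction had an adjusted p of 0.00049.

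In KATO-III, 13 of 21 members were called between the fractions, against 39.3% of all tested genes and 51.4% of those above the floor on all arrays. The CD133+ cells were higher in 4 members (18.7% of all genes) and lower in 9 (20.6%). The median change of the members was -0.14 log2 units, beside 0 over all tested genes. Among the called members the 3 largest falls were in TSPAN1, TSPAN17 and TSPAN9, and the rises were in TSPAN6, CD9, TSPAN12 and TSPAN13.

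TSPAN1, a tetraspanin of secretory epithelia, read 81.4 and 62.8 in KATO-III CD133+ cells against 231 and 163 in CD133- cells. In SNU-216 it read 227 and 327 against 219 and 165, and in SNU-601 it read 775 and 956 against 799 and 781. The fractions overlapped in SNU-601 but not in KATO-III or SNU-216. TSPAN1 was lower by 2.71-fold in KATO-III CD133+ cells (log2 change -1.44, SE 0.241, adjusted p = 0.00141), and the other lines were not called (0.52, interval -0.03 to 1.07, and 0.12, adjusted p = 0.861). These are dim values, and adding 100 to every intensity in place of the floor brought the KATO-III change to -0.78.

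TSPAN17, a TspanC8 tetraspanin that escorts the shedding protease ADAM10, read 1255 and 1276 in KATO-III CD133+ cells against 2459.8 and 2594 in CD133- cells. Its SNU-216 values were 2126 and 2238 against 2449.5 and 2291, and in SNU-601 it read 3502 and 3335 against 3385 and 3169. The KATO-III fractions were thus far apart beside the spread of their arrays, the SNU-216 fractions were close, and those of SNU-601 overlapped. TSPAN17 fell by 1.00 log2 units in KATO-III (SE 0.0558, adjusted p = 3.15e-06). The differences of -0.12 in SNU-216 (interval -0.25 to 0.01) and 0.06 in SNU-601 were not called, and the interaction adjusted p was 3.54e-05.

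TSPAN31, encoded beside CDK4 and first named for its amplification in sarcoma, read 1169 and 1236 in KATO-III CD133+ cells against 1987 and 2089. In SNU-216 it read 596 and 609 against 845 and 827, and in SNU-601 it read 2059.5 and 2267 against 2164 and 2079. It fell by 0.76 in KATO-III (SE 0.0582, adjusted p = 1.69e-05) and by 0.47 in SNU-216 (adjusted p = 0.000437), with overlapping fractions and a difference of 0.03 in SNU-601. Over the lines the change of -0.40 missed the threshold (SE 0.11, adjusted p = 0.0592).

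TSPAN12, which assists norrin signalling through the receptor FZD4 in the retina, was detected only in KATO-III, at 116 and 103 in CD133+ cells and 85.4 and 81.3 in CD133- cells. All 8 arrays of SNU-216 and SNU-601 read between -18.0 and -0.485. The KATO-III change was 0.39 (SE 0.109, adjusted p = 0.0198). It was lost without KATO-III CD133+ replicate 1 (0.30, adjusted p = 0.101) and without CD133- replicate 2 (0.35, adjusted p = 0.0817). A floor of 100 left a change of 0.13 (adjusted p = 0.108), an offset of 100 left 0.19 (adjusted p = 0.22), and the call was also lost with a floor of 16 (adjusted p = 0.115) and on the KATO-III arrays alone (adjusted p = 0.114).

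In SNU-216, 10 of 21 members were called, against 28.6% of all tested genes and 40.1% of those above the floor on all arrays. The CD133+ cells were higher in 7 members (14.6% of all genes) and lower in 3 (14%). The median change of the members was 0.15 log2 units, beside 0 over all tested genes. TSPAN8, TSPAN9 and CD9 rose most, and CD82, TSPAN4 and TSPAN31 fell.

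TSPAN8, also called CO-029 and known as a tumour-associated antigen of digestive tract cancers, read 144 and 155 in SNU-216 CD133+ cells against 48.3 and 57.5 in CD133- cells. In KATO-III it read 13776 and 13757.5 against 15226 and 14083, and in SNU-601 15207 and 15377.5 against 17300.1 and 15850.1. The gene was therefore near the floor in SNU-216 and far above it in both other lines. It rose by 1.50 log2 units in SNU-216 CD133+ cells (SE 0.0839, 2.83-fold, adjusted p = 7.69e-06), with differences of -0.09 in KATO-III (adjusted p = 0.471) and -0.11 in SNU-601 (adjusted p = 0.442). The interaction adjusted p was 2.41e-05. The size of the rise depended on how dim values were treated, and with an offset of 100 it was 0.71 and with a floor of 100 it was 0.58, both still called.

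TSPAN9, also called NET-5 and known from platelets, was the 1 member called in all 3 lines, beside 4.97% of all tested genes, and its direction was not shared. It read 1473 and 1592 in KATO-III CD133+ cells against 2631 and 2638 in CD133- cells. In SNU-216 it read 866 and 879.6 against 347 and 374, and in SNU-601 3683 and 3660.05 against 2914 and 3285. The fractions did not overlap in any line. TSPAN9 fell by 0.78 in KATO-III (SE 0.0665, 1.72-fold, adjusted p = 3.02e-05), rose by 1.28 in SNU-216 (2.42-fold, adjusted p = 5.39e-06) and rose by 0.25 in SNU-601 (1.19-fold, adjusted p = 0.0357). The interaction adjusted p was 5.45e-06. Its SNU-601 call was lost without any 1 of 7 arrays, SNU-601 CD133+ replicate 1 or 2 (adjusted p = 0.128 and 0.114), SNU-601 CD133- replicate 1 (change 0.16, adjusted p = 0.19), either KATO-III CD133- array (adjusted p = 0.0556 and 0.0555) and either SNU-216 CD133+ array (adjusted p = 0.0537). It was also lost without the mean-variance trend (adjusted p = 0.0781) and on the SNU-601 arrays alone (adjusted p = 0.223).

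TSPAN4, which is known for building migrasomes, the vesicles left on the retraction fibres of migrating cells, read 268 and 268 in KATO-III CD133+ cells against 332 and 346. In SNU-216 it read 1398 and 1344 against 2037 and 2090.4. In SNU-601 the order was turned, with 1006 and 1105 in CD133+ cells against 917 and 928. It fell by 0.34 in KATO-III (SE 0.0575, adjusted p = 0.00151) and by 0.59 in SNU-216 (adjusted p = 0.000124), and the SNU-601 difference of 0.19 missed the threshold (adjusted p = 0.0526).

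TSPAN33, a further TspanC8 member, known from B cells and red cell precursors, read 1044 and 1067 in KATO-III CD133+ cells against 1605 and 1441. The SNU-216 values were 53.5 and 79.7 against 39.3 and 44.1, and in SNU-601 249.9 and 265 against 198 and 216. The fractions did not overlap, being lower in CD133+ cells of KATO-III and higher in those of both other lines. The changes were -0.53 in KATO-III (SE 0.169, adjusted p = 0.0351), 0.65 in SNU-216 (adjusted p = 0.019) and 0.31 in SNU-601 (adjusted p = 0.273), with an interaction adjusted p of 0.00852. The KATO-III call was lost without any 1 of its 4 arrays (adjusted p of 0.0732 to 0.168). The SNU-216 call was lost without CD133+ replicate 2 (change 0.36, adjusted p = 0.0729) and without CD133- replicate 1 (0.57, adjusted p = 0.101), and with an offset of 100 (0.23, adjusted p = 0.0773), and a floor of 100 lay above all its SNU-216 values.

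**Figure D3:**
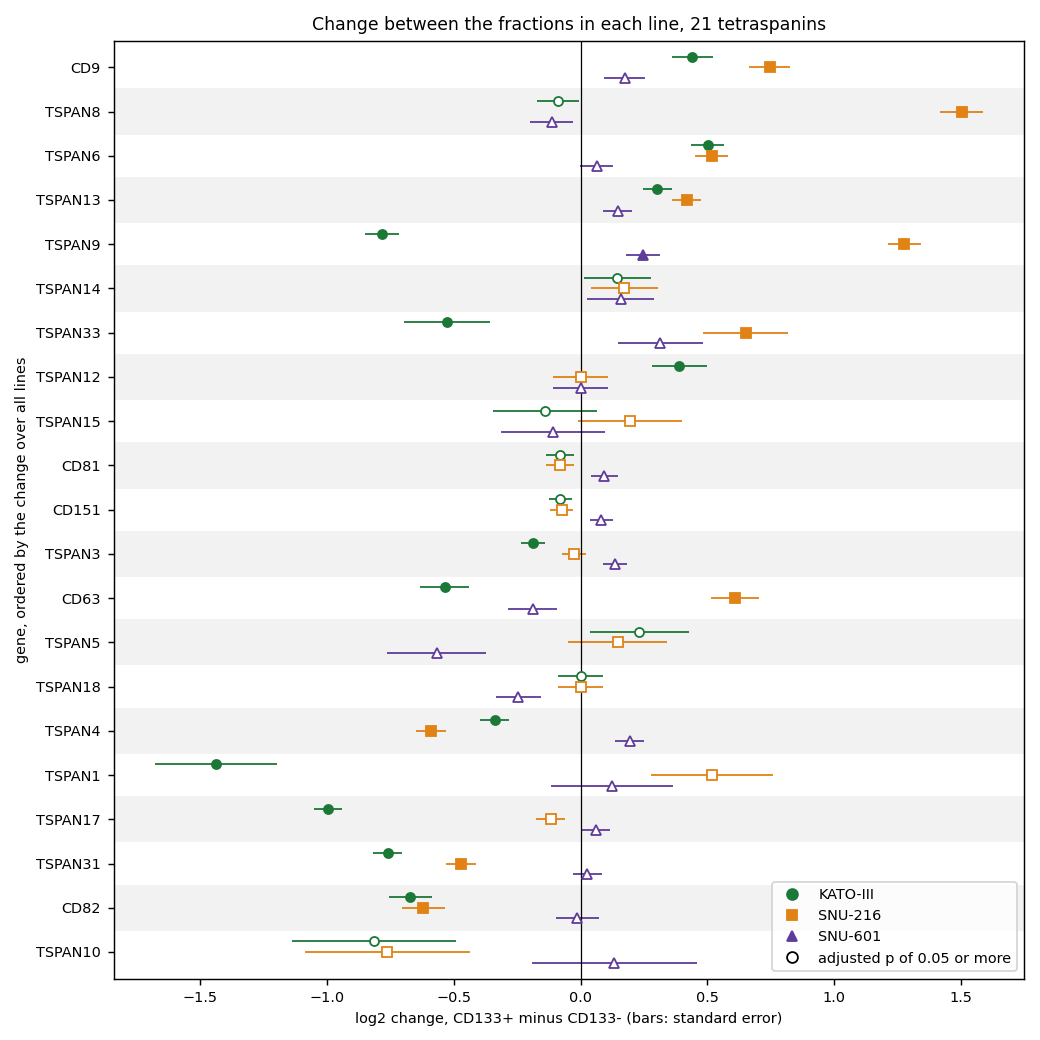
Log2 change, CD133+ minus CD133-, of the 21 tested tetraspanin genes in each line, with bars for the standard error from limma; filled points passed an adjusted p of 0.05. Filled points lie on both sides of 0 in KATO-III (4 higher, 9 lower) and SNU-216 (7 higher, 3 lower), and SNU-601 has 1, TSPAN9.

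In SNU-601 the test called TSPAN9 alone of 21 members, against 16.4% of all tested genes and 22.4% of those above the floor on all arrays. At an unadjusted p under 0.05 there were 6 members, 4 higher and 2 lower. The median size of change was 0.13 log2 units among the members and 0.18 over all tested genes. Of all tested genes, 8.59% were called higher and 7.78% lower, and 0 members were called lower.

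The change between the fractions differed among the lines in 12 of 21 members, against 44.4% of all tested genes and 58.5% of those above the floor on all arrays. In CD63, TSPAN33 and TSPAN9 it was called in opposite directions in KATO-III and SNU-216, which was so, for any pair of lines, in 10.9% of all tested genes. No member was called in 1 direction in all 3 lines (1.06% of genes), and 5 of 21 had the same sign in all 3 (22.5% of genes), namely CD9, TSPAN13, TSPAN6, TSPAN14 and CD82. A gene under the floor on every array of a line, such as TSPAN12 in SNU-216, had no sign there. Such genes are counted among all tested genes but cannot share a sign over the lines. Of the 21 members, 18 were above the floor on all arrays. Shared signs were not counted among all genes of that kind, so whether the members' shares differed from theirs was not tested. By the signal-to-noise ratio, the difference of the fraction means over the sum of their SDs across the 3 lines, no member passed 1 or -1, beside 1.18% of genes.

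**Figure D4:**
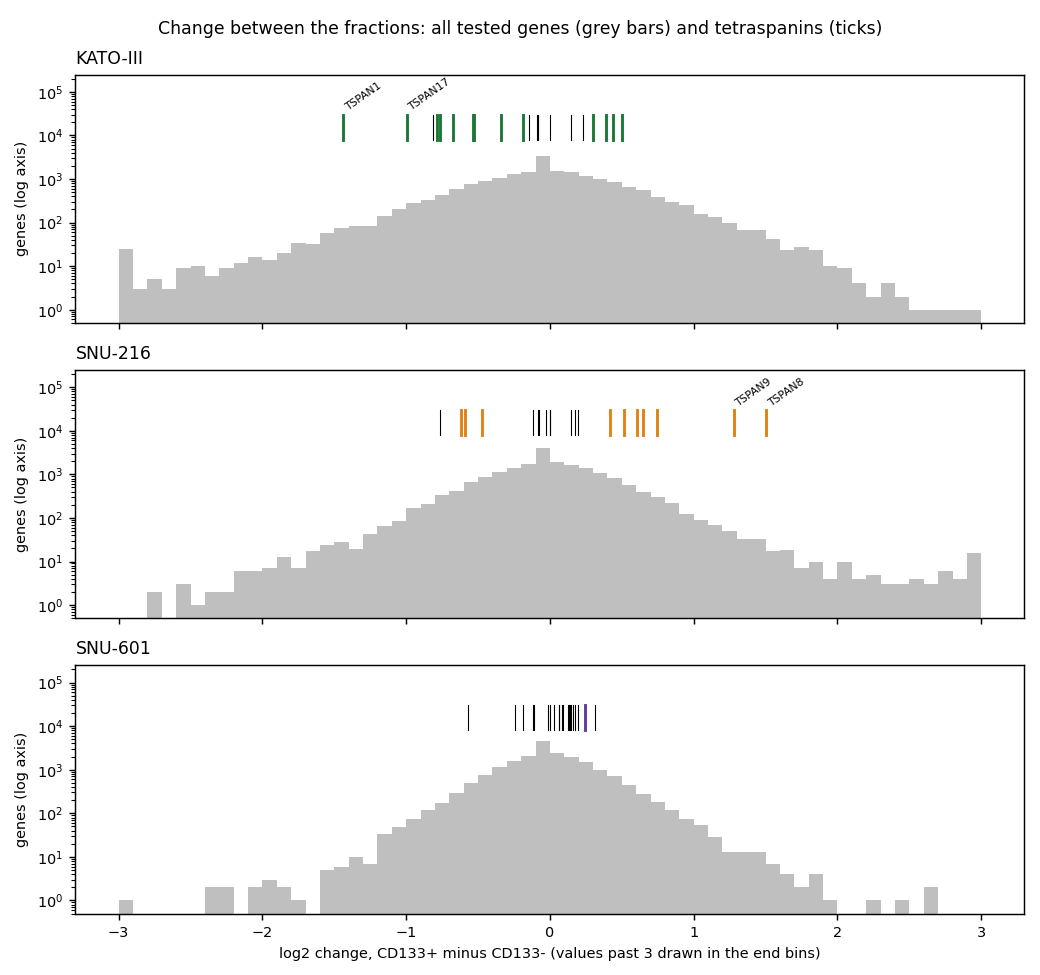
Distribution of the log2 change, CD133+ minus CD133-, over all 20147 tested genes in each line (grey bars, number of genes), on a log count axis with changes past 3 in the end bins, and the 21 tetraspanin genes as ticks, coloured where called; named ticks lie beyond 0.9 log2 units. TSPAN1 and TSPAN17 lie in the lower tail in KATO-III, TSPAN9 and TSPAN8 in the upper tail in SNU-216, and none in SNU-601.

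The TspanC8 tetraspanins, which carry ADAM10 through the secretory pathway and shape its choice of substrates, were all tested. Of these 6 genes, TSPAN17 and TSPAN33 fell in KATO-III, TSPAN33 rose in SNU-216 and none was called in SNU-601. Of all tested genes, 20.6% were called lower in KATO-III, 14.6% higher in SNU-216 and 16.4% in either direction in SNU-601. TSPAN5 read 844 and 889.9 in KATO-III CD133+ cells and 711 and 767 in CD133- cells. Its SNU-216 values were 40.1 and 12.3 in CD133+ cells and 28.3 and 18.5 in CD133- cells, and its SNU-601 values 45.3 and 26.8 against 49.8 and 65.5. It was thus clearly detected in KATO-III and at or near the floor in both other lines. TSPAN10 (32.9 to 337 over the arrays), TSPAN14 (202 to 1058) and TSPAN15 (133 to 466) were not called in any line. The largest difference among these 3 genes was in TSPAN10, with -0.82 in KATO-III (SE 0.325, adjusted p = 0.0794).

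Of the members not yet described, TSPAN3 (2912 to 11275 over the arrays) fell by 0.19 in KATO-III (SE 0.0462, adjusted p = 0.0108), a call that was lost without CD133+ replicate 2 (adjusted p = 0.0554) and without CD133- replicate 1 (0.0716). TSPAN18 was above the floor only on both arrays of SNU-601 CD133- cells, at 39.4 and 38.2, and was not called (adjusted p = 0.0982).

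Between lines, the median size of difference among the tetraspanins was 1.33 log2 units for KATO-III and SNU-216, 0.75 for KATO-III and SNU-601 and 1.32 for SNU-216 and SNU-601, beside 0.39, 0.47 and 0.13 between the fractions of KATO-III, SNU-216 and SNU-601. Over all tested genes these sizes were 0.44, 0.38 and 0.37 between lines. Between the fractions they were 0.29, 0.23 and 0.18, so the lines differed more than the fractions there too. Averaged over both fractions, 20 of 21 members differed among the 3 lines, against 72.3% of all tested genes and 85.2% of those above the floor on all arrays, with TSPAN18 the exception. KATO-III was higher than SNU-216 in 14 members (30.3% of genes) and lower in 6 (31.7%), with 62% of genes called in either direction and 72.7% of those above the floor on all arrays. KATO-III against SNU-601 gave 8 higher (28.7%) and 12 lower (29.9%), with 58.6% and 71.3% called. SNU-216 was higher than SNU-601 in 3 members, CD151, TSPAN10 and TSPAN4 (29.4%), and lower in 14 (27.1%), with 56.5% and 70.7% called. The median difference of the members was 1.04 log2 units for KATO-III minus SNU-216 and -1.32 for SNU-216 minus SNU-601, beside -0.03 and 0.01 over all tested genes. For KATO-III minus SNU-601 it was -0.32, beside -0.02.

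The widest range belonged to TSPAN8, which was 160-fold higher in KATO-III than in SNU-216 (log2 difference 7.32, adjusted p = 5.83e-13) and 179-fold higher in SNU-601 than in SNU-216 (adjusted p = 4.57e-13). KATO-III and SNU-601 lay close, with a difference of -0.16 (adjusted p = 0.039). TSPAN33 was ordered KATO-III, SNU-601, SNU-216, with KATO-III 24.3-fold above SNU-216 and 5.49-fold above SNU-601 and each step called. TSPAN5 was 17.1-fold higher in KATO-III than in SNU-601 (adjusted p = 1.04e-08) and 23.3-fold higher than in SNU-216, with dim arrays set to the floor, so that both folds are low estimates.

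TSPAN9 ran from SNU-601 over KATO-III to SNU-216, with SNU-601 6.01-fold above SNU-216 and 1.68-fold above KATO-III. TSPAN1 was likewise highest in SNU-601, 7.01-fold above KATO-III (adjusted p = 5.56e-07) and 3.62-fold above SNU-216. TSPAN4 was highest in SNU-216, 5.58-fold above KATO-III (adjusted p = 4.16e-11) and 1.71-fold above SNU-601. CD9 was highest in KATO-III, 5.27-fold above SNU-216 and 1.56-fold above SNU-601. TSPAN12 was at least 2.92-fold higher in KATO-III than in SNU-216 and SNU-601, both of which were under the floor on all 4 arrays.

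Of the 47 genes listed as partners or relatives of tetraspanins, 43 were tested. EPCAM, a partner in the web, was taken from the entry with its current symbol, which was called in no line. The entry under its older symbol TACSTD1 was not counted, and both entries disagreed. TACSTD1 was called higher in KATO-III CD133+ cells (0.11, adjusted p = 0.0402), where EPCAM had -0.13. In SNU-216 TACSTD1 was called lower (-0.13, adjusted p = 0.0251), where EPCAM had 0.01. Over the lines, 0 rose and 2 fell, ITGB4 and TM4SF4, beside 2.62% of all tested genes called higher and 2.11% lower. In KATO-III 11 rose and 16 fell, beside 18.7% and 20.6%, in SNU-216 13 rose and 5 fell, beside 14.6% and 14%, and in SNU-601 0 rose and 7 fell, beside 8.59% and 7.78%. Most of these partners were bright. Among genes above the floor on all arrays, 6.78% were called in either direction over the lines. In KATO-III, SNU-216 and SNU-601 the shares were 51.4%, 40.1% and 22.4%. Both calls over the lines were lost with the arrays of a population averaged (adjusted p = 0.796) and when population entered as a random block (0.149 for ITGB4 and 0.191 for TM4SF4). The TM4SF4 call was also lost without any 1 of the 4 KATO-III or 4 SNU-601 arrays (adjusted p up to 0.0942), whereas ITGB4 kept its call without any 1 array (adjusted p of 0.0177 to 0.0283). ITGB4, the integrin subunit of hemidesmosomes, fell by 0.42 in KATO-III (SE 0.0629), 0.32 in SNU-216 and 0.60 in SNU-601 (over the lines 0.45 lower, adjusted p = 0.00803). The collagen receptor subunit ITGA2 fell in KATO-III and rose in SNU-216, with -0.92 (adjusted p = 6.47e-05) and 1.31 (adjusted p = 1.87e-05). The laminin receptor subunits ITGA3 and ITGA6, partners of CD151, moved apart in KATO-III, by -1.22 (adjusted p = 1.18e-05) and 1.29 (adjusted p = 0.00192). Of the immunoglobulin superfamily partners, PTGFRN rose by 0.76 in SNU-216 (adjusted p = 8.57e-05) and IGSF3 fell by 0.80 in KATO-III (adjusted p = 0.000614) and rose by 0.36 in SNU-216 (adjusted p = 0.0444).

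ADAM10, named here for its binding to the TspanC8 members, rose in SNU-216 by 0.49 (SE 0.131, adjusted p = 0.0216). Its KATO-III difference was 0.09 (adjusted p = 0.691). TGFA, a shed growth factor, rose by 0.58 in SNU-216 (adjusted p = 0.000861). NOTCH1, an ADAM10 substrate, fell by 1.02 in KATO-III (adjusted p = 1.23e-05) and by 0.65 in SNU-216 (adjusted p = 0.000268). HBEGF, from the same list, fell by 0.44 in KATO-III (adjusted p = 0.000142) and by 0.19 in SNU-601 (adjusted p = 0.0354). Of 11 tested genes of exosome and endosome machinery, 5 rose and 5 fell in KATO-III, 5 rose and 1 fell in SNU-216, and 4 fell in SNU-601, where 39.3%, 28.6% and 16.4% of all tested genes were called in either direction. Among genes above the floor on all arrays, as these 11 were, the shares were 51.4%, 40.1% and 22.4%. The ESCRT subunit HGS had the largest fall in KATO-III (-1.04, adjusted p = 2.06e-06), the ATPase VPS4A the largest rise (0.75, adjusted p = 0.000177), and RAB27A, which docks multivesicular bodies, the largest rise in SNU-216 (0.68, adjusted p = 0.00603). In SNU-601 VPS4A fell by 0.45 (adjusted p = 0.00963). PDCD6IP, also called ALIX, fell by 0.38 in KATO-III, rose by 0.30 in SNU-216 and fell by 0.53 in SNU-601 (adjusted p = 0.00197). Among signalling partners PRKCA rose by 1.82 in SNU-216 (adjusted p = 1.87e-05). In KATO-III 3 of the 5 signalling partners rose, led by MET with 0.74 (adjusted p = 0.00432), and 1 fell, ERBB2, by 0.74 (adjusted p = 2.29e-05). Of all tested genes in KATO-III, 18.7% were called higher and 20.6% lower. Among those above the floor on all arrays, 51.4% were called in either direction.

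**Figure D5:**
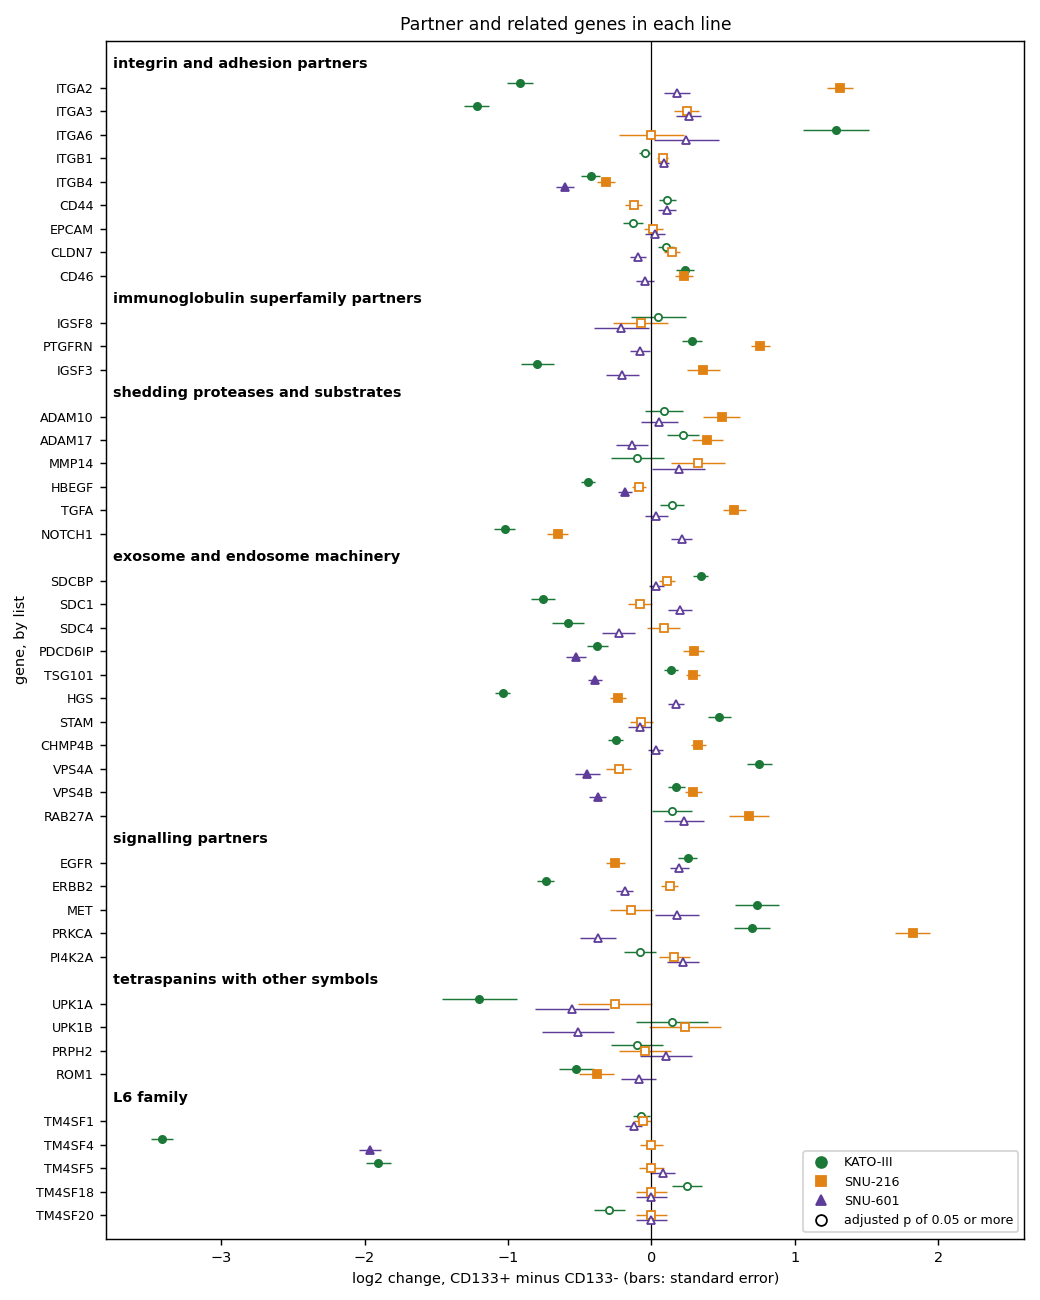
Log2 change, CD133+ minus CD133-, in each line for the tested partner and related genes, grouped by list, with bars for the standard error; filled points passed an adjusted p of 0.05. The integrin, exosome and signalling lists hold filled points on both sides of 0, and the TM4SF4 points of KATO-III and SNU-601 lie far to the left.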

How the data were processed

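Whole-genome expression was measured on 12 Illumina HumanHT-12 v3 arrays, 2 for each of 6 sorted populations. The deposited intensities are the authors' background-subtracted, quantile-normalized values from BeadStudio (version not given in the sources used here), on a linear scale with 32.1% of values at or below 0. The way several probes were merged into 1 value for a gene is not given in the sources used here. The background subtraction leaves dim genes without a reliable ratio. A detection floor of 32.7 was taken as the absolute value of the lowest 1% point of the table, smaller values were raised to the floor, and log2 followed, and 20147 genes that exceeded it on 2 or more of 12 arrays were tested, of 34595 with a value (93 of 34688 entries were empty).

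Tests used limma 3.58.1 in R 4.3.3 with a mean-variance trend. Fractions were compared over all lines with line as a block (8 residual degrees of freedom), and within lines, between lines and for the interaction with a mean for each population (6 residual degrees of freedom). P-values were adjusted by Benjamini-Hochberg over all tested genes, with a threshold of 0.05. The fits were tested on simulated data with known changes. Folds are on the floored log2 scale and so understate changes of dim genes. The median SD between arrays of a population was 0.13 log2 units, and the number of arrays limits the precision.

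The members and the partner and marker lists were chosen with earlier results of these data known. Values on all arrays are given for members called over all lines or in all 3 lines, the 3 called members with the largest rise and the 3 with the largest fall in each line, the 5 with the widest range between lines, and CD9, CD63, CD81, CD82, CD151, TSPAN1 and TSPAN8; other members are given by range and count, and partner genes where called over all lines or with the largest called change of their list in a line. Replicate numbers 1 and 2 recur in every population, but the deviations of same-numbered arrays correlated at -0.0116 to 0.0276 over 15 pairs of populations, so the numbers were not taken as pairs. Promoter sequences came from RefSeq (GRCh38.p14); 21 of 29 members had an entry, and figures were drawn with matplotlib 3.10.9. The share called among genes above the floor on all arrays was added after the results were seen. Alternatives tried were other floors, an offset, other filters, renormalization, no trend, a replicate block, averaged arrays, a random block, single-line fits and leaving out each array.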

Additional observations from a re-analysis of the deposited data

Results flagged for a closer look

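For 12 tetraspanin genes the change between CD133+ and CD133- cells differed among KATO-III, SNU-216 and SNU-601 by the interaction test of limma, each value below being its adjusted p. The background for this test was 44.4% of all tested genes. TSPAN9 had 5.45e-06, with a fall in KATO-III and rises in both other lines. TSPAN8 had 2.41e-05, with its rise in SNU-216 at dim intensities. TSPAN17 had 3.54e-05, with its fall in KATO-III. TSPAN4 had 0.000246, with falls in KATO-III and SNU-216. TSPAN31 had 0.000268, with falls in the same lines. CD63 had 0.00049, with a fall in KATO-III and a rise in SNU-216. CD82 had 0.0031, with falls in KATO-III and SNU-216 and -0.01 in SNU-601. TSPAN1 had 0.0033, with its fall in KATO-III. TSPAN6 had 0.00486, with rises in KATO-III and SNU-216. TSPAN33 had 0.00852, with a fall in KATO-III and a rise in SNU-216. TSPAN3 had 0.00964, with a small fall in KATO-III. CD9 had 0.00965, with rises in KATO-III and SNU-216 and 0.17 in SNU-601.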

How the results depend on the processing

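The changes of single members that were called in the main fit were recomputed under alternatives, which gave 619 values. Of these, 549 kept their direction and their call, and 69 kept the direction and lost the call. A further 1 became 0 (TSPAN33 in SNU-216 under a floor of 100, which lay above its values), and 0 reversed. Changes not called in the main fit were not followed, so this tally cannot show gained calls. Over the lines, 4 members were called; the count was 2 without the mean-variance trend, 2 with a replicate block, 0 after averaging both arrays of a population and 0 when population entered as a random block, and 0 to 4 when 1 array was left out. In SNU-601 the count of 1 became 3 with a floor of 100, 3 with the filter at 1 array, 3 with arrays centred on their medians and 0 on the arrays of SNU-601 alone, and was 0 to 2 with 1 array left out. Leaving out 1 array gave 11 to 13 calls in KATO-III (13 with all arrays), 9 to 11 in SNU-216 (10), 12 to 14 for the interaction (12) and 20 for the lines (20). On the arrays of their own line alone, 9 members were called in KATO-III and 8 in SNU-216, and CD63 and TSPAN1 in KATO-III and TSPAN13 in SNU-216 were lost under that alternative only. The replicate block changed no other tetraspanin count by over 1.5 times. The 2 partner genes called over the lines became 1 with the replicate block, 1 with the filter at 1 array, 4 with the filter at 6 arrays, and 0 with averaged arrays or the random block. The 18 partner genes called in SNU-216 became 7 on its own arrays, 10 without SNU-216 CD133+ replicate 1 and 11 without CD133- replicate 1, and the 7 in SNU-601 became 1 on its own arrays. The causes were not tested. Genes near the floor, TSPAN5, TSPAN12, TSPAN18 and, in SNU-216, TSPAN8 and TSPAN33, are limited by their signal over background.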

Other observations

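The L6 family, 4-span proteins outside the tetraspanins, held the widest differences among the listed relatives. TM4SF4 read 447 and 479 in KATO-III CD133+ cells against 4861 and 4984 in CD133- cells, and 248 and 232 against 907 and 966 in SNU-601. It fell by 3.41 log2 units in KATO-III (SE 0.0788, adjusted p = 6.03e-08) and by 1.96 in SNU-601 (adjusted p = 1.43e-05), and was under the floor on all arrays of SNU-216. TM4SF5 read 175 and 170.2 in KATO-III CD133+ cells against 638 and 652, a fall of 1.90 (adjusted p = 1.24e-06), with 0.08 in SNU-601 (adjusted p = 0.657). Of the tetraspanins with other symbols, UPK1A, a urothelial plaque protein, fell by 1.20 in KATO-III (SE 0.26, adjusted p = 0.00578), and ROM1, a photoreceptor disc protein, fell by 0.52 in KATO-III (adjusted p = 0.00794) and by 0.38 in SNU-216 (adjusted p = 0.0445).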
